A study of Homo sapiens with 5 samples.

Results

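Of 21088 merged binding regions of Nrf2 and HIF1α, 522 carried a peak of Nrf2 in control cells, a peak of Nrf2 in cells treated with iAs (inorganic arsenic) and a peak of HIF1α in control cells, but no peak of HIF1α with iAs. They were selected on the presence of called peaks in these 4 libraries, and are the regions at which Nrf2 was found under both conditions and the HIF1α peak was no longer called after treatment, 2.48% of all regions. A peak was assigned to a region when the 2 overlapped by at least 1 bp. Because this choice used the peaks of all 4 libraries, the presence and the widths of these peaks are given below as a description without a test, whereas sequence and genomic position were not used to choose the regions.

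The cells were BEAS-2B, an immortalized line of human bronchial epithelium, which were kept without serum overnight and then left untreated (control) or given 1 μM iAs for 6 h. Both groups shared the serum starvation, and neither carried a genetic change made for this experiment. Chromatin was immunoprecipitated for Nrf2 or for HIF1α, giving 4 ChIP-seq libraries with 1 library per antibody and condition, so no value has a replicate check. The antibodies came from Santa Cruz (Nrf2) and Abcam (HIF1α) per the labels, and from Active Motif per the methods of the study. Read depth is unknown, and the input library was not analysed here. The whole lists held 3204 Nrf2 peaks in control cells and 7743 with iAs, and 6008 peaks of HIF1α without iAs and 12826 with it, so both factors had more peaks after treatment.

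Nrf2 is a stress-responsive transcription factor that pairs with small MAF proteins and binds the antioxidant response element (ARE), from which it drives genes of redox balance and detoxification. The AP-1 factors of the FOS and JUN families bind a closely related site, and the letters of an ARE can contain a whole AP-1 site. HIF1α pairs with ARNT and binds a short core with the letters ACGTG or GCGTG at genes of the hypoxic response, and trivalent arsenic is known to raise the levels of both Nrf2 and HIF1α.

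The sequences below are single sites from the regions that the text describes, and they show the kinds of elements found under the Nrf2 control peaks. Each is a stretch of 29 bases of hg19 (GRCh37) within 100 bp of the centre of the widest Nrf2 control peak, read 5′ to 3′ on the strand that holds the element. The first 5 hold the joint element TGACTCAGC, in which the AP-1 site TGACTCA and the ARE core TGACNNNGC coincide, and the capitals mark those letters. They come from regions at S100A2 (chr1:153539198-153539226, + strand), ITGA3 (chr17:48128545-48128573, +), TBXAS1 (chr7:139615972-139616000, +), DNER (chr2:230319767-230319795, -) and SEZ6L (chr22:26717800-26717828, -). The sites at TBXAS1 and SEZ6L lie outside the HIF1α control peak of their region.
S100A2: gcccaggcagTGACTCAGCggcacaccct
ITGA3: gactcagcccTGACTCAGCcatgtggcct
TBXAS1: tgagtccacaTGACTCAGCagaaatggtc
DNER: atctcaaaagTGACTCAGCctttaagtct
SEZ6L: tcctcattcaTGACTCAGCagacagctaa
The next 4 hold an AP-1 site in a window without an ARE core, and the capitals mark the AP-1 site. They lie at AXL (chr19:41729596-41729624, +), S100A10 (chr1:151964980-151965008, +), SMAD3 (chr15:67399503-67399531, -) and ANXA2 (chr15:60663744-60663772, +).
AXL: ccccagaggagTGACTCAggcccatggct
S100A10: cagaccaggtgTGACTCActtcctcttgg
SMAD3: cagttaaagcaTGACTCAttaaaatcttt
ANXA2: gaacaggatgcTGACTCAcatctgccgag

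Within the regions, the Nrf2 peaks were broader after iAs and the HIF1α peaks were the narrowest of the 3 sets. The 522 regions held 549 Nrf2 control peaks, 523 Nrf2 peaks with iAs and 529 HIF1α control peaks. The summed width of the Nrf2 peaks in a region had a median of 345 bp in control cells (189 to 1963 bp). With iAs the median was 541 bp (181 to 2998 bp), and 474 of 522 regions were wider with iAs than in control cells, with a median ratio of 1.47. The same ratio was 1.40 in the regions with peaks in all 4 libraries and 1.71 in the 1948 regions with Nrf2 under both conditions and no HIF1α peak, so a broader Nrf2 peak with iAs was common to the 3 kinds. The HIF1α control peaks had a median width of 273.5 bp (190 to 768 bp), and in 347 of 522 regions they were narrower than the Nrf2 control peaks. Single peaks of the whole lists had the same order of medians, with 276 bp for HIF1α control, 309 bp for Nrf2 control and 333 bp for Nrf2 with iAs.

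**Figure D1:**
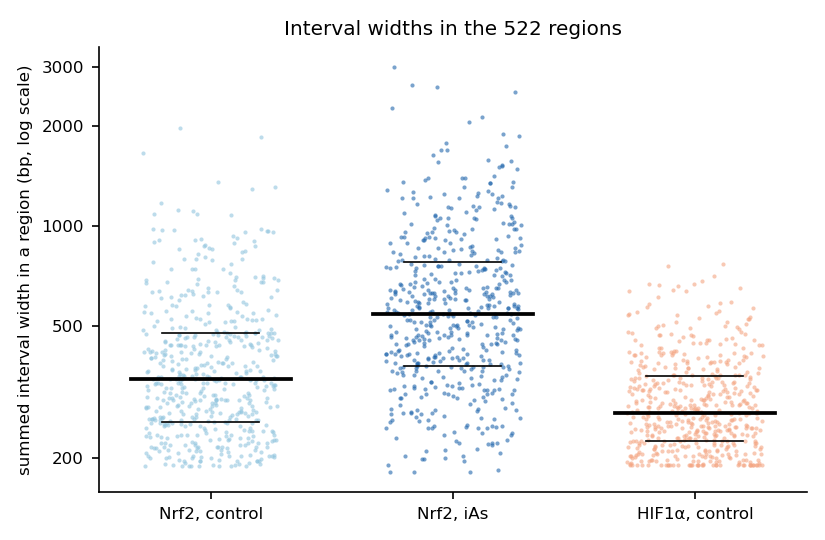
Summed peak width (bp, log scale) in each of the 522 regions for Nrf2 in control cells, Nrf2 with iAs and HIF1α in control cells. Each point is a region, thick lines are medians (345, 541 and 273.5 bp) and thin lines are quartiles, and the Nrf2 values lie higher with iAs.

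The choice placed both control peaks in the same merged region, and in nearly all cases they overlapped directly. The HIF1α control peak overlapped an Nrf2 control peak in 516 of 522 regions (98.9%), and in 94.9% of the regions with peaks in all 4 libraries. In the 522 the centres of the widest peak of each factor were a median of 51 bp apart (quartiles 24 and 99 bp). The centres were within 100 bp in 394 regions, 75.5% (95% Wilson interval 71.6 to 79.0%), against 57.3% (52.0 to 62.5%) of the regions with peaks in all 4 libraries. Among regions over 10 kb from a start site the shares were 76.4% of 441 and 65.7% of 108. The regions with peaks in all 4 libraries were wider (median 771 bp against 566.5 bp), and these shares describe peaks that the choice used. Intervals here and below cover the counting of regions only, treat each region as separate, and say nothing about variation between cultures.

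The width of the HIF1α control peak moved with the presence of a HIF1α peak under iAs. Of the 5908 regions with a HIF1α control peak, 46.6% had no HIF1α peak with iAs, and of the 857 of these with Nrf2 under both conditions, 60.9% had none, which are the 522 regions described here. When the 857 were ordered by the width of the HIF1α control peak, the share without HIF1α under iAs was 77.2% in the narrowest of 4 nearly equal bins (190 to 236 bp), 74.3% and 60.3% in the middle bins, and 31.8% in the widest bin (420 to 2258 bp). The regions with peaks in all 4 libraries had HIF1α control peaks with a median of 388 bp, and the 522 of 273.5 bp. Over 10 kb from a start site these medians were 374.5 and 272 bp. In the regions with HIF1α in both conditions and no Nrf2 the median was 304 bp. A loss of binding and a peak just under the calling threshold cannot be told apart with 1 library per condition.

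Few of the regions lay beside a HIF1α peak with iAs. Such a peak was within 1 kb of 12 of the 522 (2.30%), and of 2.26% of the Nrf2 regions without HIF1α. It was within 1 kb of 3.64% of the regions with HIF1α in control cells and Nrf2 with iAs only. Of the regions with a HIF1α control peak only it was within 1 kb of 13.0%, from which the 522 differed by -10.7 points (-12.6 to -8.37). Of the 5 chosen regions nearest to a HIF1α peak with iAs, 4 lay 0.079 kb (near SWAP70), 0.222 kb (near YWHAG), 0.235 kb (at SELENOF) and 0.241 kb (at MDM2) from it. The 5 regions kept out by the shortest HIF1α peaks with iAs, those near IRS1, LMNA, DNAJB6, ASAP1 and UQCRHL, had such a peak of 188 bp each, beside HIF1α control peaks of 401, 191, 282, 356 and 275 bp.

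The regions lay far from gene starts. The centre of a region was a median of 62.8 kb from the nearest start site of a protein-coding gene, against 0.516 kb for the regions with peaks in all 4 libraries and 48.1 kb for those with Nrf2 under both conditions and no HIF1α. Of the 522, 283 were intergenic (54.2%), 196 intronic (37.5%), 35 in a promoter (6.70%), 4 in a UTR and 4 in another exon, where a promoter is the 3 kb upstream of a start site. Promoters held 49.6% of the regions with peaks in all 4 libraries, so that the 522 differed from them by -42.8 points (95% Newcombe interval -48.5 to -37.0). They held 5.90% of the Nrf2 regions without HIF1α, from which the 522 differed by 0.801 points (-1.36 to 3.46). More of the 522 were intergenic than of the Nrf2 regions without HIF1α (54.2% against 47.5%, 6.68 points, 1.85 to 11.4) and fewer were intronic (a difference of -6.45 points, -11.1 to -1.68). The 522 were thus close to the Nrf2 regions without HIF1α in their share of promoters, and differed from them between introns and intergenic sequence.

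The share of HIF1α control peaks with no counterpart under iAs rose with distance from a start site, with Nrf2 and without it. Under 1 kb from a start site, where 15.6% of all 2870 regions with a HIF1α control peak had none with iAs, the share was 11.0% of the 210 regions with Nrf2 under both conditions (7.41 to 15.9%) and 16.9% of the 2415 without Nrf2. From 1 to 10 kb, with 60.3% over all, the shares were 59.2% of 98 and 60.1% of 391. Over 10 kb, with 79.8% over all, they were 80.3% of 549 (76.8 to 83.4%) and 79.1% of 1218 (76.8 to 81.3%). Without regard to distance the shares were 60.9% with Nrf2 in both conditions and 39.9% without any Nrf2 peak, further apart than in each of the distance classes. The peaks compared are those that chose the 522, so these shares are a description, and the grouping by distance was chosen after the data were seen.

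**Figure D2:**
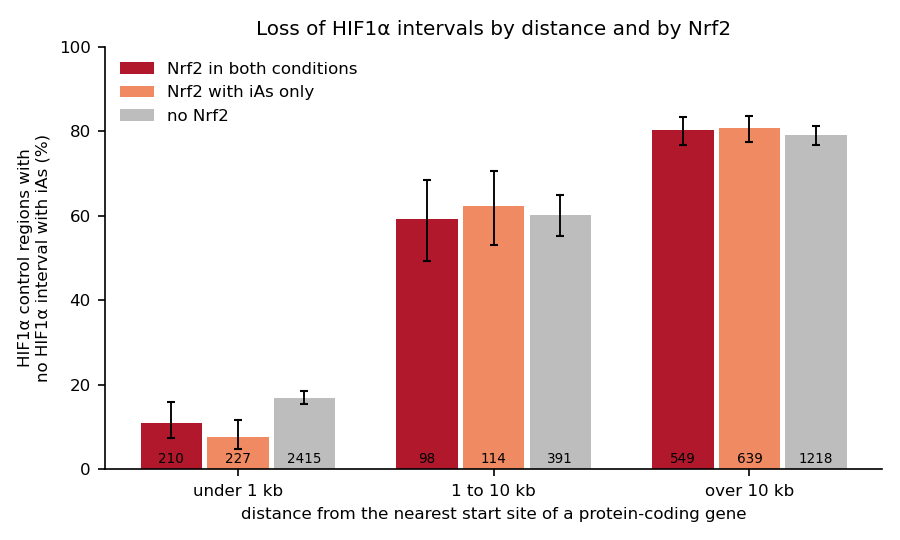
Share of regions with a HIF1α control peak that had no HIF1α peak with iAs (%), by distance from the nearest start site and by Nrf2. Bars are shares, whiskers are 95% Wilson intervals and the numbers at the foot are regions, and the shares rise from 11.0% under 1 kb to 80.3% over 10 kb for regions with Nrf2 in both conditions.

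Over 10 kb from a start site, peaks of like width can be set side by side. In the narrowest of 4 bins of HIF1α control peaks (190 to 214 bp), 91.1% of 101 regions with Nrf2 under both conditions had lost HIF1α, against 88.6% of 341 without Nrf2. In the widest bin (from 332 bp) the shares were 66.5% of 209 (59.9 to 72.6%) and 57.6% of 231 (51.1 to 63.8%). The share with Nrf2 was the higher of the pair in all 4 bins, which again is a description.

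AP-1 sites were the most frequent of the elements searched. The window reached 100 bp to either side of the Nrf2 control centre, and both strands were read. TGACTCA was found in 242 of 522 regions, 46.4% (42.1 to 50.6%), against 3.64% of the same windows moved by 5 kb, a difference of 42.7 points (38.0 to 47.2). The ARE core TGACNNNGC was found in 171 regions, 32.8% (28.9 to 36.9%), against 5.94% of the moved windows. Over all 21088 regions, with the window at the region centre, 16.2% held TGACTCA and 17.4% TGACNNNGC, where the 522 held 38.3% and 25.5%. An element found is a match of letters, and a window without one lacks only those letters.

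The windows fell into classes by how the related elements combined. The joint element TGACTCAGC stood in 82 regions (15.7%), an AP-1 site without an ARE core in 139 (26.6%), an ARE core without an AP-1 site in 68 (13.0%), and both apart from each other in 21 (4.02%), while 212 (40.6%) had neither. Regions with Nrf2 under both conditions and no HIF1α were richer in the joint element, with 30.9% of 1948, and fewer of them had neither (27.9%). The AP-1 site without an ARE core was more frequent in the 522 than in them (26.6% against 21.5%, 5.17 points, 1.10 to 9.50). Counted with and without the other element, both elements were less frequent in the 522, with differences of -17.9 points for TGACNNNGC (32.8% against 50.6%, -22.3 to -13.2) and -10.8 points for TGACTCA (46.4% against 57.1%, -15.5 to -5.95).

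With the wider Nrf2 control peaks the ARE core was more frequent among the 522. It stood in 25.3% (19.4 to 32.2%) of the 174 regions with the narrowest peaks, 31.6% of the middle 174 and 41.4% (34.3 to 48.8%) of the 174 with the widest. TGACTCA had no such order, with 42.5, 53.4 and 43.1%.

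Against the regions with peaks in all 4 libraries, the AP-1 site differed over all regions and not beyond the interval far from start sites. TGACTCA stood in 22.7% (18.5 to 27.5%) of those regions, and the 522 exceeded them by 23.7 points (17.3 to 29.6). Over 10 kb from a start site it stood in 44.4% (35.4 to 53.8%) of 108 such regions and in 48.8% (44.1 to 53.4%) of 441 of the 522, a difference of 4.31 points (-6.17 to 14.5). TGACNNNGC differed by 3.21 points over all regions (-3.20 to 9.42) and by -1.63 points over 10 kb (-11.9 to 7.88). The contrast with the Nrf2 regions without HIF1α was still there over 10 kb, at -8.43 points for TGACTCA (-13.6 to -3.19) and -17.5 points for TGACNNNGC (-22.4 to -12.3).

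**Figure D3:**
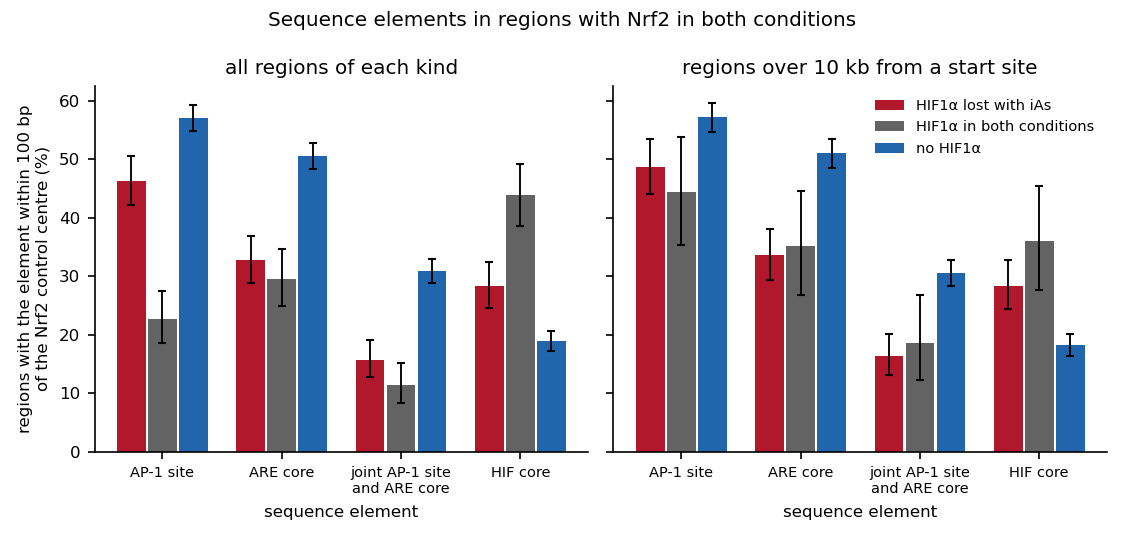
Share of regions (%) with an AP-1 site (TGACTCA), an ARE core (TGACNNNGC), the joint element (TGACTCAGC) or a HIF core (ACGTG or GCGTG) within 100 bp of the Nrf2 control centre, with 95% Wilson intervals, for regions with Nrf2 in both conditions. For the AP-1 site the 522 regions stand at 46.4% and the regions with HIF1α in both conditions at 22.7% (left), and at 48.8% and 44.4% over 10 kb from a start site (right).

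The core to which HIF1α binds was less frequent than the AP-1 site under the HIF1α control peaks themselves. In the window at the HIF1α control centre, ACGTG or GCGTG stood in 156 of 522 regions, 29.9% (26.1 to 33.9%), and TGACTCA in 231, 44.3% (40.0 to 48.5%). In the regions with peaks in all 4 libraries the HIF core stood in 51.0% (45.7 to 56.4%), and in the 2418 regions with HIF1α in both conditions and no Nrf2 in 60.3% (58.3 to 62.2%). Those 2418 regions held TGACTCA in 2.15% (1.64 to 2.81%), and the 254 of them over 10 kb from a start site in 7.48% (4.84 to 11.4%). Over 10 kb from a start site the HIF core stood in 30.6% of the 441, 49.1% of the 108 and 62.6% of the 254 regions of these kinds, so that the 441 differed by -18.5 points (-28.6 to -8.21) and -32.0 points (-39.0 to -24.4) from the other two. Other regions without a HIF1α peak under iAs also had few HIF cores over 10 kb from a start site. The core stood in 32.8% of the 964 with a HIF1α control peak and nothing else, from which the 441 differed by -2.17 points (-7.28 to 3.14). It stood in 26.4% of the 516 that had Nrf2 with iAs only, from which they differed by 4.26 points (-1.46 to 9.99). In the same windows TGACTCA stood in 46.0% of the 441 and 36.1% of the 108, a difference of 9.92 points (-0.536 to 19.6). Without regard to distance, the HIF core stood in 39.1% of the 1606 regions with a HIF1α control peak only. The 522 differed from these by -9.22 points (-13.7 to -4.52). They differed by 4.39 points (-0.839 to 9.63) from the 604 regions that had Nrf2 with iAs only. Over 10 kb from a start site, the HIF core at the HIF1α control centre thus differed beyond its interval from the regions with HIF1α in both conditions. It did not do so there from the others without HIF1α under iAs. At the Nrf2 control centre the difference from the 108 was -7.77 points (-18.0 to 1.74), whose interval holds 0. The GC content moved with it, at a median of 46.5% in the 441, 54% in the 108 and 66.5% in the 254, and its part in the difference was not tested.

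At the Nrf2 control centre the HIF core stood in 28.4% of the 522 (24.7 to 32.4%) and in 20.5% of the windows moved by 5 kb, 7.85 points apart (2.64 to 13.0). The regions with Nrf2 and no HIF1α had it in 18.9%, and the 522 exceeded them by 9.46 points (5.35 to 13.8). Over all 21088 regions it stood in 41.5% of windows at the region centre and in the 522 in 28.5%. A window with both a HIF core and an AP-1 site or ARE core was found in 98 of the 522 (18.8%).

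Loss of HIF1α also occurred at regions with fewer AP-1 sites. At the HIF1α control centre and over 10 kb from a start site, TGACTCA stood in 46.0% of the 441, in 31.6% of 516 regions that had Nrf2 with iAs only, and in 21.5% of 964 regions with a HIF1α control peak and nothing else. The joint element stood in 14.5% of the 441, 1.94% of the 516 and 0.207% of the 964. Regions that shared the loss of HIF1α thus differed in these elements by whether and when Nrf2 was there, and 61.6% of the 980 regions with HIF1α in control cells and Nrf2 with iAs only had lost HIF1α.

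Many AP-1 sites of the regions lay close to the centres of the peaks of both factors. In the whole regions, 479 matches of TGACTCA lay in 324 of 522 regions. Their median distance was 67 bp from the Nrf2 control centre, 79 bp from the HIF1α control centre and 96 bp from the Nrf2 centre with iAs. Within 50 bp of the Nrf2 control centre lay 189 matches, within 50 bp of the HIF1α control centre 167, and within 50 bp of the Nrf2 centre with iAs 143. The 3 centres are of the same regions, so these positions are not independent of each other. Only the regions were searched, with a median width of 566.5 bp, so matches become fewer away from a centre in part because the regions end. The spread of evenly placed sites was not computed.

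**Figure D4:**
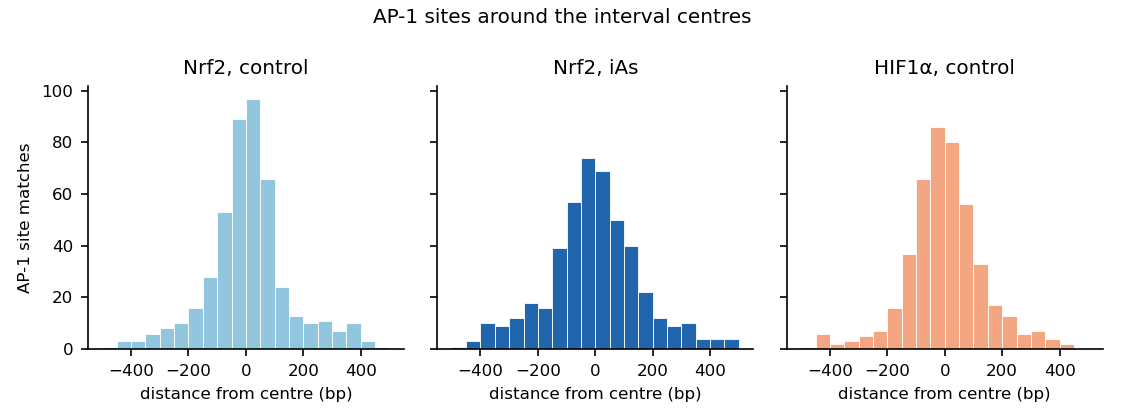
Matches of TGACTCA by distance (bp) from the centre of the widest Nrf2 control, Nrf2 iAs and HIF1α control peak in the 522 regions, in bins of 50 bp and out to 500 bp. Of 479 matches, 459, 463 and 447 fall in the range shown, and the highest bins lie next to the centre in each panel. Matches were searched inside the regions only, so the fall with distance is in part set by where the regions end.

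A promoter box was rare in the regions and an enhancer core was frequent, and each trait was shared with another kind of region. GGGCGG, the box bound by SP1 at many CpG-rich promoters, stood in 5.17% of the 522 at the Nrf2 control centre, in 4.79% of the moved windows and in 31.6% of the regions with peaks in all 4 libraries. GGAATG, the core bound by the TEAD factors of epithelial enhancers, stood in 27.8% of the 522 (24.1 to 31.8%) against 10.7% of the moved windows. It stood in 21.6% of the Nrf2 regions without HIF1α and in 17.9% of the regions with peaks in all 4 libraries. Over 10 kb from a start site it stood in 28.8% of 441 of the 522. There the regions with peaks in all 4 libraries had it in 34.3% of 108, a difference of -5.46 points (-15.6 to 3.91). Over all 21088 regions, in windows at the region centre, GGGCGG stood in 36.1% and GGAATG in 12.6%. Both strands were read, and CACGTG, which contains the letters of ACGTG, stood in 3.83% of the 522 at the Nrf2 control centre. The forkhead core TGTTTAC stood in 3.64%, and CCGGAAGT (ETS factors), TGACGTCA (CREB) and AAGATGGCG (YY1) in 0.383%, 0.575% and 0.575%. At the region centre of all 21088 regions the shares of these 5 were 4.94%, 1.78%, 2.05%, 0.854% and 1.09%.

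The 12 regions with the widest Nrf2 control peaks are named by the gene with the nearest start site, 0.996 to 184 kb away. The widest lay near TM4SF19 (chr3:196064927-196067583), with 1963 bp of Nrf2 peaks in control cells, 2657 bp with iAs and a HIF1α control peak of 587 bp. The single Nrf2 peak with iAs was broader there than all Nrf2 control peaks together, and the HIF1α peak covered only part of them.

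In an intron of TBXAS1, the thromboxane synthase gene (chr7:139613603-139616600), 3 Nrf2 control peaks summed to 1660 bp, 1 peak with iAs covered 2998 bp and the HIF1α control peak 240 bp. Downstream of the start of AKR1B15, an aldo-keto reductase gene (chr7:134277666-134279716), the widths were 1355, 2051 and 454 bp. A further 8 included a region near CLDN1, which encodes a tight junction claudin, with 1110 bp of Nrf2 in control cells, 1166 bp with iAs and 372 bp of HIF1α (chr3:189948973-189950138). With those near ZNF469, TCEA1, TPST1, KCTD3, ASPHD2, RPL22L1 and PID1, they had 1080 to 1306 bp of control Nrf2, 1166 to 2522 bp with iAs and 190 to 667 bp of HIF1α in control cells. In all 12 the Nrf2 width was higher with iAs, and the nearest HIF1α peak with iAs was 49.8 kb or more away from the 11 plotted.

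**Figure D5:**
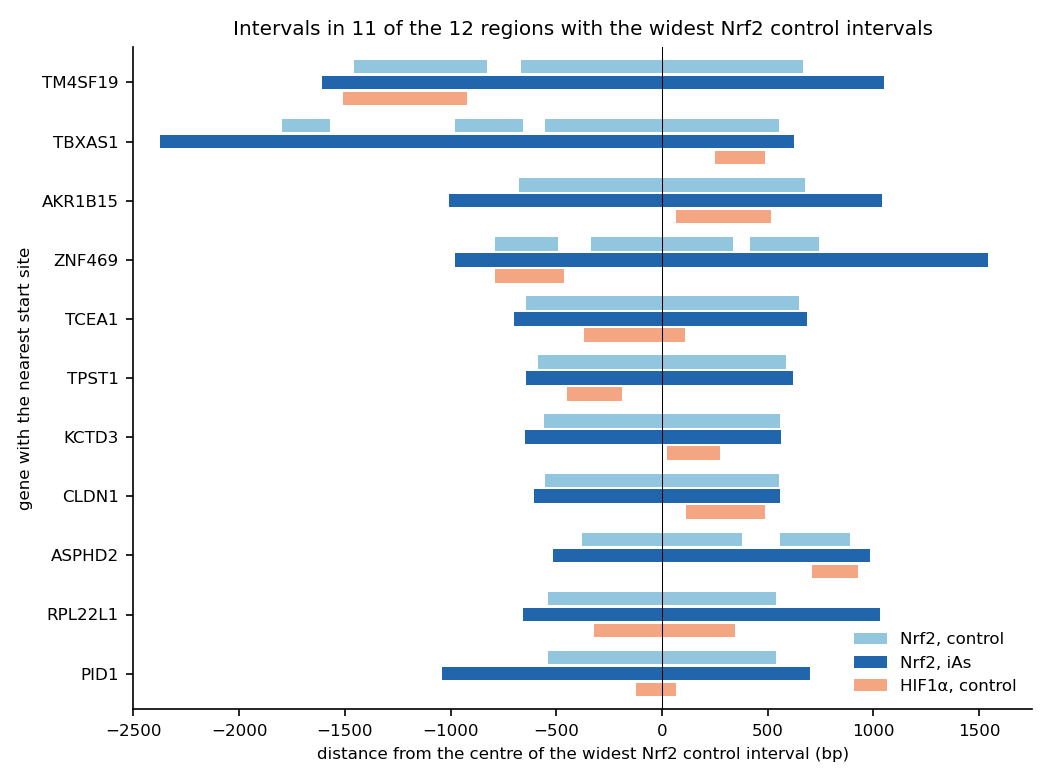
Peaks in 11 of the 12 regions with the widest Nrf2 control peaks, as distance (bp) from the centre of the widest Nrf2 control peak, with each row named by the gene with the nearest start site. Light blue bars are Nrf2 control, dark blue Nrf2 iAs and orange HIF1α control peaks, and each dark blue bar spans the light blue ones, from 1166 bp near CLDN1 to 2998 bp at TBXAS1.

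The 6 regions with the widest HIF1α control peaks ranged from 667 to 768 bp of HIF1α. The widest, an intergenic region 738 kb from the start of ZNF608 (chr5:124819939-124821320), had 768 bp of HIF1α in 2 control peaks, with 642 bp of control Nrf2 and 1283 bp with iAs. A region 1.29 kb downstream of the start of S100A10 (chr1:151964663-151965418) had a HIF1α control peak of 756 bp, an Nrf2 control peak of 201 bp and an Nrf2 peak with iAs of 615 bp. S100A10 had a HIF1α peak within 1 kb of its start site in both conditions, and the nearest HIF1α peak with iAs was 0.282 kb from the region. A region 37.8 kb upstream of TXNRD1, the cytosolic thioredoxin reductase and a known Nrf2 target (chr12:104571316-104572234), had 707 bp of HIF1α and 805 bp of control Nrf2 and 919 bp of Nrf2 with iAs. The other 3, near VMP1, ELFN2 and RPL22L1, had 667 to 679 bp of HIF1α in control cells.

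Among listed antioxidant genes, 3 of 39 in the annotation had one of the 522 regions in the gene body or within 10 kb, where 343 of all 20163 protein-coding genes did (1.7%). They included AKR1B10, which encodes a reductase of lipid aldehydes, and ALDH3A1, an aldehyde dehydrogenase. The region in an intron of AKR1B10 (chr7:134218163-134218483) had 199 bp of control Nrf2, 234 bp with iAs and 240 bp of HIF1α in control cells. The region near ALDH3A1 (chr17:19631129-19631769) had 523, 641 and 231 bp. Neither window held an AP-1 site or ARE core, and neither gene had a HIF1α peak with iAs at its start site. The lists are described by their counts, and none was tested.

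Of 36 listed hypoxia genes 1 had such a region, and of 19 glycolytic genes none. The share over all 20163 protein-coding genes was 1.7%, so lists of this size would hold few or none, and no absence is read from these counts. None of 15 stemness genes that the study names had such a region within 10 kb. Of 25 regulators of HIF1α and Nrf2, 1 had one, the Hedgehog factor GLI2, in an intron 179 kb downstream of its start (chr2:121672186-121673022), with 221 bp of control Nrf2, 837 bp with iAs and 253 bp of HIF1α.

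Genes of cell adhesion and the basal epithelium were represented by 5 of 30, ITGA3, S100A2, S100A10, ANXA2 and PLEC, where 1.7% of all 20163 protein-coding genes had such a region. This list was chosen with earlier results of these data known, and the count was not tested. The region 4.88 kb upstream of ITGA3, the integrin α3 subunit (chr17:48128438-48128739), had 254 bp of control Nrf2, 297 bp with iAs and 225 bp of HIF1α, and its window held the joint element in 2 copies 11 bp apart. The region 0.989 kb upstream of S100A2, a calcium-binding protein of basal epithelial cells (chr1:153539059-153539559), had 401, 501 and 347 bp and held an AP-1 site beside a joint element. These are 2 of the sequences printed above.

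ANXA2 encodes annexin A2, the partner of the S100A10 protein, and 2 regions lay in its introns. One (chr15:60663382-60664006) had 302 bp of control Nrf2, 625 bp with iAs and 394 bp of HIF1α, and the other (chr15:60671613-60672235) had 256, 623 and 526 bp. The region at PLEC, the cytolinker plectin, had 203, 291 and 190 bp and 2 AP-1 sites. HIF1α peaks with iAs stood at the start sites of 4 of these 5 genes, and S100A2 was the one without, where 42.6% of all 20163 protein-coding genes had one.

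In growth factor signalling, 2 of 29 listed genes had such regions, and 1 of 12 AP-1 genes did, where the share over all protein-coding genes was 1.7%. In an intron of AXL, a receptor tyrosine kinase (chr19:41729450-41729821), the widths were 313 bp of control Nrf2, 372 bp with iAs and 204 bp of HIF1α, with 2 AP-1 sites in the window, 1 of them at the centre of the Nrf2 control peak. SMAD3, which carries signals of TGF-β, held 2 regions in its introns, with 535, 978 and 190 bp (chr15:67399038-67400015) and 251, 268 and 362 bp (chr15:67470956-67471317). Of 12 AP-1 genes, FOSL1, which encodes FRA-1, had a region 2.89 kb upstream of its start (chr11:65670493-65671007) with 235, 312 and 492 bp and no AP-1 site, ARE core or HIF core in its window. The start site of FOSL1 carried HIF1α in both conditions.

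Few genes gathered several of the regions. Of the 343 genes with a region within 10 kb, 305 had 1, 35 had 2, and PRKAG2 and SDK1 had 3 each. PRKAG2 encodes a γ subunit of the AMP-activated kinase, and its regions had 203 to 445 bp of control Nrf2 and 301 to 919 bp with iAs. SDK1 encodes a cell adhesion protein, and its regions had 207 to 357 bp and 279 to 827 bp. The unnamed gene ENSG00000285218 on chromosome 3 had 4, with 214 to 1082 bp of control Nrf2 and 305 to 667 bp of HIF1α. Regions in the gene body were counted, so long genes can gather more, and gene length was not taken into account. PRKAG2 (chr7:151253210-151574299), SDK1 (chr7:3340884-4308632) and ENSG00000285218 (chr3:170136656-170578169) are long genes.

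HIF1α with iAs was often present at the start site of the gene nearest to a lost region. A HIF1α peak with iAs lay within 1 kb of that start site for 311 of 522 regions, 59.6% (55.3 to 63.7%), where 42.6% of all protein-coding genes had one. With each of the 460 assigned genes counted once, it was 274, again 59.6%. The regions with Nrf2 and no HIF1α gave 56.9%, and the 522 differed from them by 2.70 points (-2.09 to 7.38), so no difference from Nrf2 regions that never had a HIF1α peak was detectable. The regions with a HIF1α control peak only gave 52.6%, and the 522 differed from them by 6.96 points (2.05 to 11.8). The regions with peaks in all 4 libraries gave 86.9%. All these kinds but the last were chosen without such a peak in the region itself, which bears on regions under 1 kb from a start site, 23 of the 522. For 199 regions (38.1%) the start site had HIF1α with iAs and not in control cells, and for 39.8% of the Nrf2 regions without HIF1α, a difference of -1.66 points (-6.28 to 3.09).

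In control cells a HIF1α peak stood at the start site of the nearest gene for 27.4% of the 522 (23.7 to 31.4%), for 18.9% of the Nrf2 regions without HIF1α, and for 16.7% of all protein-coding genes. Nrf2 stood there for 6.13% of the 522 in control cells and 18.4% after iAs, where all genes had 2.33% and 5.18%. The regions were chosen for these 3 peaks and 23 of them lay under 1 kb from that start site, so their own peaks count in these shares and nothing is read from them. Near the regions themselves, a HIF1α peak with iAs lay within 10 kb for 72 of 522, 13.8% (11.1 to 17.0%). The Nrf2 regions without HIF1α had 12.9% and the regions with a HIF1α control peak only 27.0%, and the median distance to the nearest HIF1α peak with iAs was 73.4, 74.9 and 38.9 kb in these 3 kinds.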

How the data were processed

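The authors' deposited list gave the start and end of each peak interval in 4 ChIP-seq libraries of BEAS-2B cells and the regions merged over them, as positions on hg19 without counts, heights or p-values. The submitters' processing notes name BWA and MACS2 2.1.0. The methods name MACS or SICER and say that tags were down-sampled to the sample with the fewest. Depth is unknown, so absence of a peak may reflect depth or threshold.

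A library was assigned to a merged region by an overlap of at least 1 bp. Elements were searched within 100 bp of a peak centre, on both strands, and in the window moved by 5 kb. Distances were to the start sites of 20163 protein-coding genes (GENCODE release 44 on GRCh37). The start was that of the canonical transcript for 19870 genes and the outer start of the gene for the rest. Classes were taken from any of their transcripts in the order promoter, UTR, exon, intron, intergenic. Shares carry Wilson and differences Newcombe 95% intervals. With 1 library per condition no test was run, and the differences are intervals only. Regions named were the 12 with the widest Nrf2 and the 6 with the widest HIF1α control peaks, those within 10 kb of listed genes, the 5 nearest to either side of the rule, and genes with 3 or more. Among these, 2 genes and their regions are counted but not reported by name here. The list names TRIM16L and ARNTL were not matched. The members and lists were chosen with earlier results of these data known. Python 3.11.15, NumPy 2.4.6, SciPy 1.17.1, pysam 0.24.0 and matplotlib 3.10.9 were used, and the overlap and element searches were tested on simulated data.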

Additional observations from a re-analysis of the deposited data

How the results depend on the processing

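The 522 regions were 522 again when the regions were rebuilt or limited to autosomes and X, 515 when the HIF1α peak itself had to overlap both Nrf2 peaks, 391 with a reciprocal overlap of 50%, and 510 with no HIF1α peak with iAs within 1 kb. With the wider 50% of peaks of each library there were 190, of which 142 were among the 522. Searching the whole region gave 62.1% for TGACTCA, 46.9% for TGACNNNGC and 55.2% for ACGTG or GCGTG, and searching 50 bp on each side gave 29.5%, 19.7% and 14.8%, since the windows differ in length. At the HIF1α control centre TGACNNNGC stood in 26.6%, and with the wider 50% of peaks the HIF core stood in 32.6%. Promoters held 4.79% with 1 kb upstream, 14.0% with the start sites of all genes and 15.8% with the wider 50% of peaks. A HIF1α peak with iAs lay within 2 kb of 4.41% and within 50 kb of 40.6%, and within 0.5 kb of the start site of the nearest gene for 55.2%. Within 50 kb there were 644 genes. Other settings stayed within the interval of the first value, or within 1.5 times a count. No paired analysis was possible because there was 1 library per antibody and condition. The limits are the lack of replicates, the unknown depth, and peaks called as present or absent, so that a weak HIF1α peak with iAs below the calling threshold counts as lost.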

Other observations

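The 522 regions were spread unevenly over the chromosomes. Chromosome 5 held 55 of them (10.5%) and 5.87% of all merged regions, and chromosome 15 held 29 (5.56%) and 3.42%. Of the regions with Nrf2 under both conditions, whatever their HIF1α peaks, 219 lay on chromosome 5 and 94 on chromosome 15. Chromosome 14 held 1 (0.192%) and 1.56% of all regions, although 56 regions with Nrf2 under both conditions lay on it. Chromosome X held 4. These are counts of regions in 1 set of libraries, neighbouring regions are not independent, and the copy number of chromosomes in these cells was not measured here.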
